A study of Mus musculus with 11 samples.

Results

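The aminoacyl-tRNA synthetase genes were examined in AML12 cells, a line of mouse hepatocytes. Members were chosen by name alone: 1 capital letter for an amino acid followed by "ars", with or without a closing digit, or *Eprs*, with counts summed by gene name and at least 10 counts in 3 or more libraries. This gave 35 genes of the 24849 in the table, and all 35 were tested in every comparison. Names ending in 2 were taken as mitochondrial (17 genes) and the others as cytosolic (18 genes). The rule used no difference between groups. Names with other letters, such as *Farsa*, *Farsb* and *Tarsl2*, fall outside it and are given as relatives.

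RNA selected with oligo(dT) was sequenced from 11 libraries of AML12 cells: 4 of the KO line (numbered 5 to 8), 3 of unedited WT cells (5-6, 7 and 8) and 4 of the KI line (5 to 8). The KO line carries a disrupted *Txndc5*, which encodes a thioredoxin-domain protein of the endoplasmic reticulum. According to the study's methods, it was made by CRISPR/Cas9 with a recombined puromycin resistance gene and repeated puromycin selection, while its label reads "Knockdown". The KI line is labelled as a TXNDC5 knock-in, with the gene to be overexpressed from the ROSA26 locus, and its making is not described in the sources used here. No label says that the libraries of a group came from separate cultures or clones, so the p-values measure the spread between these libraries, which may be technical.

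Aminoacyl-tRNA synthetases attach each amino acid to its transfer RNA and so supply the ribosome. Most amino acids have a cytosolic and a mitochondrial enzyme from separate genes, both encoded in the nucleus. *Gars* and *Kars* each encode both forms, and *Qars* has no mitochondrial counterpart gene of its own. *Eprs* joins the glutamate and proline enzymes in 1 protein. Several cytosolic enzymes are bound in the multisynthetase complex, and many cytosolic synthetase genes are known targets of ATF4, the transcription factor of the integrated stress response.

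Total counts per library were 30380360 to 38422243 in KO, 29840366 to 30364098 in WT and 32360709 to 35335070 in KI cells. The entry with the most counts held 11.27 to 17.07% of each WT library, against 4.316 to 6.441% in KO and 4.824 to 9.124% in KI. Levels are therefore given as CPM, the counts scaled to library size with edgeR's TMM factors, a scaling that a few dominant genes move little. *Txndc5* was at 8.499 to 12.90 CPM in KO, 138.4 to 147.1 in WT and 158.1 to 179.5 in KI libraries. Its fall in KO was called (log2 fold change -3.82, adjusted p = 4.09e-08, edgeR's quasi-likelihood test), while the KI line was not called higher than WT (0.24, adjusted p = 0.136). The summed level of 12 hepatocyte markers was 6330 to 7460 CPM in KO, 3860 to 6030 in WT and 2960 to 3760 in KI. The higher sum in KO was carried by *Alb*, at 373.3 to 739.1 CPM in WT and 3589 to 4767 in KO. *Hnf4a* (82.03 to 135.0 in WT and 266.0 to 292.6 in KO) and *Apob* (356.7 to 458.5 and 561.9 to 708.9) were also higher in KO. So were *Apoa1* and, at low levels, *Tat* and *Cps1*. *Trf* (2319 to 4218 in WT and 1219 to 1450 in KO) and *Ttr* (612.6 to 1042 and 392.7 to 532.5) went the other way. So did *Serpina1a*, *Fgb* and, at a low level, *Asgr1*. *Apoa2* was at or near 0 in every group. The summed level of 5 cholangiocyte markers was 1340 to 1500 CPM in KO, 2970 to 4380 in WT and 2600 to 3080 in KI, with *Epcam* at 0 in all 11 libraries. The lower sum in KO came mostly with *Spp1* (1945 to 3288 CPM in WT and 211.2 to 282.4 in KO). *Krt7* (166.2 to 188.3 CPM in WT and 15.07 to 18.20 in KO) and *Sox9* (40.35 to 57.18 and 27.59 to 37.83) were also lower. *Krt19* went the other way (652.7 to 862.4 and 1035 to 1175). Summed markers of fibroblasts and of endothelium stayed under 2 CPM, and those of blood cells and macrophages were 1.32 to 2.21 CPM in KO, 6.73 to 9.20 in WT and 2.52 to 5.66 in KI. The part of these differences in the synthetase results was not tested.

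**Figure D1:**
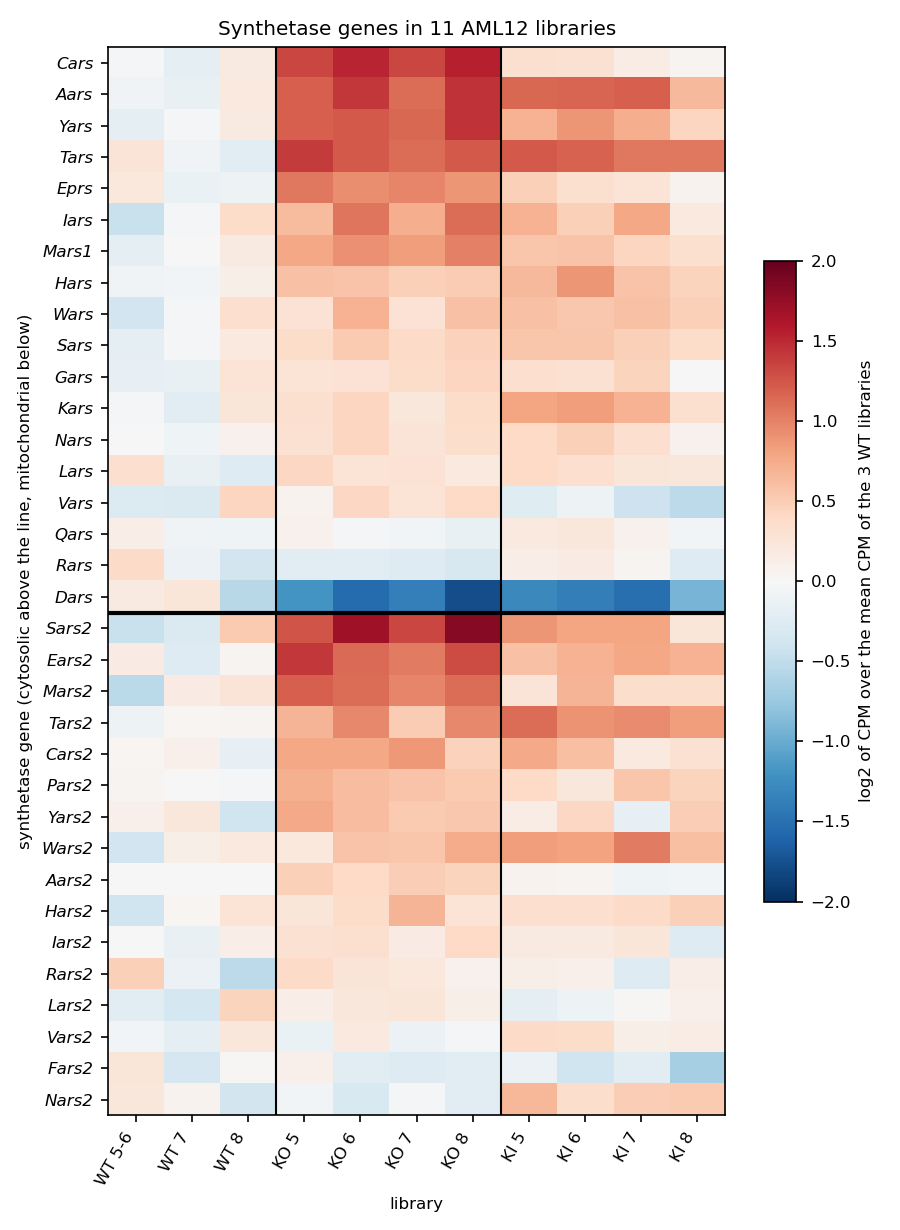
Colours give the log2 of each library's CPM over the mean of the 3 WT libraries, with 1 row per synthetase gene and 1 column per library. Of the 35 genes 34 are shown, and the rows are ordered within each class by the fold change of KO against WT. *Cars* is raised in the 4 KO columns and by less in the KI columns, *Tars* and *Aars* in both, and *Dars* is low in both.

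The first comparison asked how the synthetase genes differ between cells without TXNDC5 and WT cells. Of the 35 genes, 19 were higher and 1 was lower in KO, and 15 were not called. Over all 13359 genes tested, 55.1% were called, 26.7% as higher and 28.4% as lower, so calls were frequent everywhere, but those among the synthetases went nearly all one way. The median log2 fold change was 0.43 over the 35 genes and -0.03 over all genes. The KO and WT libraries did not overlap for 20 genes that were higher and 1 that was lower, against 28.2% and 27.1% of all genes (55.3% in either direction). Both classes moved by a like amount, with 10 of 18 cytosolic and 9 of 17 mitochondrial genes higher and medians of 0.44 and 0.43. Library totals in place of TMM moved the median of all genes to 0.38 and the calls over all genes from 3568 higher and 3796 lower to 5676 and 2123. On that scale the class medians were 0.83 and 0.85. In bulk RNA, a change per cell and a change in which cells are present cannot be told apart.

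Among the cytosolic genes, *Cars* rose most. It encodes the cysteine enzyme and lies at chr7:143557230-143600090 on the minus strand of GRCm38. It was at 179.1, 204.1, 179.5 and 209.8 CPM in KO libraries 5 to 8, at 70.30, 62.98 and 80.70 in WT libraries 5-6, 7 and 8, and at 88.92, 88.22, 78.96 and 73.87 in KI libraries 5 to 8. Every KO library stood above every WT and KI library, while KI and WT overlapped. *Cars* exceeded WT in KO by 1.42 ± 0.13 on the log2 scale (± standard error, adjusted p = 9.01e-06, edgeR's quasi-likelihood test), and the KO cells exceeded KI by 1.23 ± 0.09 (adjusted p = 3.55e-08). For KI against WT it was 0.21 ± 0.14 (adjusted p = 0.234).

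*Aars*, the alanine enzyme at chr8:111033144-111057664, was at 214.0, 248.8, 201.8 and 252.6 CPM in KO, 88.63, 83.64 and 107.2 in WT, and 207.3, 207.7, 214.3 and 146.5 in KI. Both edited lines stood above WT in every library, and KI library 8 lay below the other KI libraries. Its log2 fold change was 1.28 ± 0.14 in KO (adjusted p = 2.90e-05) and 1.06 ± 0.17 in KI (adjusted p = 0.000317). *Aars* shares 1326 exonic bases with *Exosc6* on the same strand, and reads there could belong to either gene.

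*Yars*, the tyrosine enzyme at chr4:129189760-129219607, was at 63.84, 65.59, 62.14 and 75.92 CPM in KO, 24.56, 27.40 and 31.69 in WT, and 44.98, 51.58, 46.11 and 37.62 in KI. The 3 groups did not overlap, with KI between WT and KO. Its log2 fold change was 1.24 ± 0.14 in KO (adjusted p = 3.14e-05) and 0.69 ± 0.16 in KI (adjusted p = 0.00362), and KO exceeded KI by 0.57 ± 0.11 (adjusted p = 0.000322).

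*Tars*, the threonine enzyme at chr15:11382301-11399665 on the minus strand, was at 252.8, 224.3, 208.8 and 223.6 CPM in KO, 114.2, 91.55 and 81.58 in WT, and 223.3, 216.6, 197.9 and 199.0 in KI. All 8 libraries of the edited lines stood above WT. The log2 fold change was 1.23 ± 0.14 in KO (adjusted p = 4.27e-05) and 1.13 ± 0.15 in KI (adjusted p = 8.58e-05), and the difference between KO and KI was 0.12 ± 0.08 (adjusted p = 0.228).

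*Eprs*, which held 15.0% of the counts of its class, was at 671.4, 613.7, 635.0 and 595.5 CPM in KO, 372.9, 293.3 and 302.6 in WT, and 451.4, 405.2, 389.0 and 338.0 in KI. KO stood above both other groups in every library. *Eprs* was higher in KO by 0.94 ± 0.13 than in WT (adjusted p = 0.000168) and by 0.67 ± 0.09 than in KI (adjusted p = 2.81e-05). The other cytosolic genes called higher in KO were *Iars*, *Mars1*, *Hars*, *Sars* and *Nars*, with log2 fold changes from 0.32 to 0.88. *Iars* has a pseudogene copy, *Gm4849*, that is 96% identical over 1656 bases and is not listed in the table. *Mars1*, the methionine enzyme, shares 68 exonic bases with *Ddit3* on the other strand. *Hars* and *Hars2*, both members, share 195 exonic bases on opposite strands, and the counting is not stated to use strand. The call of *Nars* was lost when any 1 of KO 5, 6, 7 or 8 or WT 7 was left out, and that of *Sars* without KO 6.

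*Dars*, the aspartate enzyme at chr1:128363707-128417368 on the minus strand, was the exception. It was at 259.3, 204.2, 230.8 and 174.3 CPM in KO, 674.6, 706.5 and 403.4 in WT, and 244.2, 228.0, 209.9 and 311.0 in KI. Both edited lines lay below every WT library, of which WT 8 was the lowest. The fold change on the log2 scale was -1.48 ± 0.21 in KO (adjusted p = 0.000144) and -1.26 ± 0.20 in KI (adjusted p = 0.000388), while KO and KI differed by -0.19 ± 0.13 (adjusted p = 0.237).

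Among the mitochondrial genes, *Sars2*, the serine enzyme at chr7:28741992-28753871, rose most in KO. It was at 9.589, 12.97, 10.08 and 14.04 CPM in KO, 2.942, 3.268 and 5.772 in WT, and 7.356, 6.865, 6.926 and 4.744 in KI. KO stood above WT and KI in every library, while KI overlapped with WT 8. The log2 fold change was 1.52 ± 0.26 against WT (adjusted p = 0.000562) and 0.85 ± 0.17 against KI (adjusted p = 0.000705). For KI against WT it was 0.69 ± 0.27 (adjusted p = 0.0543).

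*Ears2*, the mitochondrial glutamate enzyme, was at 21.42, 17.68, 16.56 and 19.95 CPM in KO, 9.095, 6.779 and 8.356 in WT, and 12.14, 13.12, 13.75 and 13.05 in KI. The 3 groups did not overlap. Its log2 fold change was 1.21 ± 0.16 in KO (adjusted p = 0.000119) and 0.69 ± 0.17 in KI (adjusted p = 0.00512). *Mars2*, the mitochondrial methionine enzyme, was at 11.69, 11.02, 10.02 and 11.11 CPM in KO, 3.522, 5.689 and 6.090 in WT, and 6.098, 8.133, 6.508 and 6.538 in KI. Every KO library was above the others, with a log2 fold change of 1.08 ± 0.21 against WT (adjusted p = 0.00124) and 0.69 ± 0.14 against KI (adjusted p = 0.000611). The other mitochondrial genes called higher in KO were *Tars2*, *Cars2*, *Pars2*, *Yars2*, *Wars2* and *Aars2*, with log2 fold changes from 0.43 to 0.77. The call of *Wars2* was lost when KO 6, KO 7, KO 8, WT 5-6 or WT 7 was left out. *Cars2* shares 422 exonic bases with *Naxd* on the other strand.

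**Figure D2:**
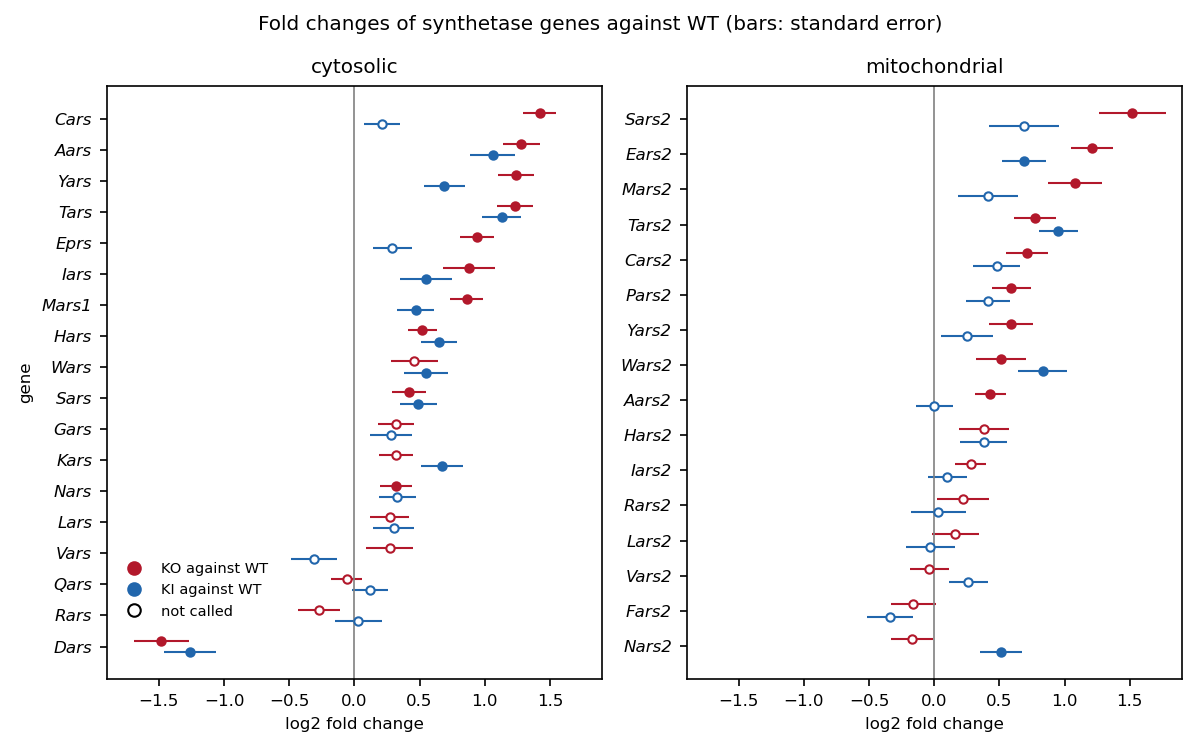
Log2 fold changes of 34 synthetase genes against WT are shown with their standard errors, cytosolic genes on the left and mitochondrial genes on the right. Filled points passed the test and open points did not. *Cars* is at 1.42 in KO and 0.21 in KI, whereas *Tars* is at 1.23 and 1.13.

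Promoter sequence was at hand for 11 cytosolic and 14 mitochondrial members, from RefSeq on GRCm38.p6, as windows of 300 bases from 250 before to 50 after the start. They were searched on both strands for TGATGNAA, the letters of the C/EBP-ATF response element that ATF4 binds, and for its form TGATGCAA, each match of which also counts as a match of the first. TGATGNAA was found in 5 of the 11 cytosolic promoters (45.5%), in 0 of the 14 mitochondrial ones and in 4.51% of the 27025 genes with a promoter. TGATGCAA was found in 36.4% of the cytosolic promoters and 1.03% of all. Matches are shown because 4 of the 5 genes, *Aars*, *Iars*, *Tars* and *Yars*, were called higher in both edited lines. *Gars* was not called in either. Of all 18 cytosolic members, with or without a promoter at hand, 7 were called higher in both lines, among them *Hars*, *Mars1* and *Sars*. Over all genes, 26.7% were called higher in KO and 21.2% in KI. Whether a match goes with a call was not tested. Each line gives 30 bases in the direction of the gene with the match in capitals. The *Aars* match shown begins 9 bases after the start.

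Aars at chr8:111033840-111033869, plus strand: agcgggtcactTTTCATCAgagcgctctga
Iars at chr13:49682126-49682155, plus strand: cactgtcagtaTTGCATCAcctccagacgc
Tars at chr15:11399655-11399684, minus strand: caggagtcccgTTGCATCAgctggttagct
Yars at chr4:129189895-129189924, plus strand: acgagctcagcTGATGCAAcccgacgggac
Gars at chr6:55037960-55037989, plus strand: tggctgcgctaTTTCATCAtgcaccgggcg

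All of these except the *Yars* match read the motif on the strand opposite to the gene. A match says only that these letters stand in the window. Of 18 genes of the integrated stress response, 3 (*Asns*, *Chac1* and *Trib3*) held TGATGNAA in their window.

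The second comparison asked how the KI line differs from the same WT libraries. Of the 35 genes, 13 were higher, 1 was lower and 21 were not called, where 42.3% of 13534 genes were called, 21.2% as higher and 21.0% as lower. The median log2 fold change was 0.38 over the synthetases and -0.02 over all genes. The cytosolic genes gave 9 called higher of 18 with a median of 0.40, and the mitochondrial genes 4 of 17 with a median of 0.38. The groups did not overlap for 17 genes that were higher and 1 that was lower, against 23.4% and 21.3% of all genes (44.7% in either direction). Without WT 7 only 9 genes were called, and without WT 8 there were 19. The calls over all genes moved too, to 2140 higher and 2136 lower without WT 7 and to 3601 and 3368 without WT 8. Library totals gave 27 calls, with medians of 0.72 and 0.69 where all genes had 0.31 and the calls over all genes went from 2874 higher and 2848 lower to 4621 and 1438.

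*Tars* and *Aars* rose most in KI, with the values given above. *Tars2*, the mitochondrial threonine enzyme, was at 26.46, 22.61, 23.47 and 21.56 CPM in KI, 11.37, 12.47 and 12.57 in WT, and 19.43, 23.60, 17.22 and 23.63 in KO. Both edited lines stood above WT, with log2 fold changes of 0.95 ± 0.15 in KI (adjusted p = 0.000320) and 0.77 ± 0.16 in KO (adjusted p = 0.00192). *Wars2*, the mitochondrial tryptophan enzyme, was at 15.69, 15.44, 18.09 and 13.38 CPM in KI, 6.732, 9.563 and 10.09 in WT, and 10.18, 13.00, 12.96 and 14.68 in KO. All KI and KO libraries lay above WT, KO 5 by a narrow margin, with log2 fold changes of 0.83 ± 0.19 in KI (adjusted p = 0.00397) and 0.51 ± 0.19 in KO (adjusted p = 0.0449).

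*Kars*, *Wars* and *Nars2* were called higher in KI and not in KO. *Kars*, the lysine enzyme, was at 148.2, 152.7, 138.7 and 106.7 CPM in KI, 83.37, 73.27 and 101.1 in WT, and 107.4, 116.0, 100.9 and 110.5 in KO. It was higher than WT by 0.67 ± 0.16 in KI (adjusted p = 0.00565), and KO was lower than KI by the direct test (-0.32 ± 0.11, adjusted p = 0.0178). That last call was lost without KO 7, KI 5 or KI 6. *Nars2*, the mitochondrial asparagine enzyme, was at 36.31, 29.53, 32.44 and 33.12 CPM in KI, 26.93, 24.21 and 17.92 in WT, and 22.26, 18.54, 22.51 and 19.70 in KO. Every KI library was above every other library. The log2 fold change was 0.51 ± 0.16 for KI against WT (adjusted p = 0.0237), a call lost without WT 7 or KI 5, and -0.66 ± 0.11 for KO against KI (adjusted p = 8.96e-05). *Wars* rose by 0.55 ± 0.17 in KI (adjusted p = 0.0189), which was lost without WT 5-6, WT 7 or KI 5. For *Wars*, KO and KI differed by -0.07 ± 0.11 (adjusted p = 0.625). Leaving out WT 7 also ended the KI calls of *Iars*, *Mars1* and *Sars*. Those of *Iars* and *Mars1* were lost as well without WT 5-6, KI 5 or KI 6, and that of *Iars* without KI 7.

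Both comparisons use the 3 WT libraries, so their agreement is no independent evidence. Over all genes, 26.7% were called higher in KO and 21.2% in KI, each against WT. The share of all genes called alike in both was not counted, so the joint counts below have no background. The calls of the 2 comparisons were joined as follows. 10 genes were called higher in both lines: *Aars*, *Hars*, *Iars*, *Mars1*, *Sars*, *Tars* and *Yars* of the cytosolic class and *Ears2*, *Tars2* and *Wars2* of the mitochondrial class. Another 9 were called higher in KO only, 3 of them cytosolic (*Cars*, *Eprs* and *Nars*) and 6 mitochondrial (*Aars2*, *Cars2*, *Mars2*, *Pars2*, *Sars2* and *Yars2*). *Dars* was called lower in both.

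The direct comparison of KO with KI gives the test of the difference between the lines. Of the 35 genes, 12 were higher and 3 lower in KO and 20 were not called, where 54.0% of 13269 genes were called, 27.0% in each direction. The groups did not overlap for 11 genes that were higher and 1 that was lower in KO, against 24.2% and 24.4% of all genes (48.6% in either direction). The median log2 fold change was 0.04 for the cytosolic, 0.20 for the mitochondrial and 0.00 for all genes. Of the 9 genes called higher against WT in KO only, 6 were also higher in KO than in KI: *Aars2*, *Cars*, *Eprs*, *Mars2*, *Sars2* and *Yars2*. These 9 were picked by calls on the same KO and KI libraries, so an excess of KO over KI is partly built into the choice. For *Cars2*, *Nars* and *Pars2* the difference between the lines did not pass the test. *Aars2*, the mitochondrial alanine enzyme, was at 27.98, 26.56, 28.39 and 27.27 CPM in KO, 20.20, 20.09 and 20.08 in WT, and 21.23, 20.87, 19.03 and 19.28 in KI. KO stood apart from both other groups, which overlapped, with a log2 fold change of 0.46 ± 0.09 against KI (adjusted p = 0.000788).

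*Vars*, *Rars* and *Lars2* were called only between KO and KI. *Vars*, the valine enzyme, was at 123.0, 155.7, 141.2 and 153.9 CPM in KO, 96.88, 96.23 and 158.7 in WT, and 99.35, 108.8, 88.29 and 81.77 in KI. KO was above KI in every library (0.61 ± 0.11, adjusted p = 0.000193), and WT 8 lay above the KO libraries while the other WT libraries lay below them. *Lars2*, the mitochondrial leucine enzyme, held 50.3% of the counts of its class and was at 398.3, 424.1, 431.1 and 394.9 CPM in KO, 313.1, 284.1 and 495.1 in WT, and 322.7, 339.4, 371.6 and 389.3 in KI. KO was higher than KI by 0.22 ± 0.09 (adjusted p = 0.0462), and the call was lost without KO 6, KO 7, KI 5 or KI 6. *Rars*, the arginine enzyme, was at 144.1, 144.9, 139.5 and 133.7 CPM in KO, 218.0, 153.2 and 129.5 in WT, and 183.9, 186.5, 172.9 and 139.9 in KI. It was lower in KO than in KI by the same test, although KI 8 lay within the KO range (-0.28 ± 0.10, adjusted p = 0.0226), and the call was lost without KO 7, KO 8, KI 5 or KI 6. Between KO and KI, the call of *Iars* was lost without KO 6, KO 8, KI 6 or KI 8, and that of *Yars2* without KO 5, KO 6, KI 5 or KI 7.

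The other 9 genes were not called in any comparison, among them *Gars*, *Lars* and *Qars* of the cytosolic class and *Fars2*, *Hars2*, *Iars2*, *Rars2* and *Vars2* of the mitochondrial class. *Gars*, the glycine enzyme, was at 238.3, 242.3, 253.8 and 266.8 CPM in KO, 175.7, 178.7 and 239.1 in WT, and 249.1, 245.3, 268.4 and 197.4 in KI. Its WT 8 library reached the level of the edited lines, and the log2 fold change of KO against WT was 0.32 ± 0.14 (adjusted p = 0.0677). *Lars*, the leucine enzyme, was at 256.1, 231.8, 235.2 and 221.3 CPM in KO, 242.9, 173.9 and 161.5 in WT, and 253.8, 244.4, 227.3 and 226.1 in KI, so that WT 5-6 lay within the edited lines. *Qars*, the glutamine enzyme, was at 230.2, 211.8, 208.1 and 195.0 CPM in KO, 238.1, 207.3 and 204.9 in WT, and 247.5, 254.0, 229.2 and 208.2 in KI. The 3 groups overlapped.

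*Iars2*, the mitochondrial isoleucine enzyme, was at 102.0, 102.8, 92.09 and 109.0 CPM in KO, 83.01, 74.16 and 90.64 in WT, and 93.90, 93.73, 97.86 and 69.18 in KI. KO lay above WT in every library, but the difference did not pass the test (0.28 ± 0.12, adjusted p = 0.0672). *Iars2* shares 2034 exonic bases with *Rab3gap2* on the other strand, and the counting is not stated to use strand. *Fars2*, the mitochondrial phenylalanine enzyme, was at 18.48, 14.75, 14.34 and 14.70 CPM in KO, 20.46, 13.64 and 17.53 in WT, and 15.80, 13.12, 14.64 and 10.83 in KI. Its groups overlapped.

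*Hars2*, the mitochondrial histidine enzyme, was at 14.69, 16.05, 19.89 and 15.00 CPM in KO, 9.451, 12.83 and 14.98 in WT, and 15.72, 15.60, 16.18 and 17.33 in KI. KI lay above WT in every library, but it was not called (0.38 ± 0.18, adjusted p = 0.0985). *Rars2*, the mitochondrial arginine enzyme, was at 32.41, 29.47, 28.66 and 26.19 CPM in KO, 34.37, 22.72 and 17.17 in WT, and 26.88, 26.47, 20.67 and 27.04 in KI. *Vars2*, the mitochondrial valine enzyme, was at 17.69, 22.18, 17.85 and 18.94 CPM in KO, 18.77, 16.95 and 22.66 in WT, and 25.34, 25.12, 21.20 and 21.50 in KI. The spread of the WT libraries covered most of the edited ones for both. Without WT 8, 8 further genes were called in KO against WT (*Gars*, *Hars2*, *Iars2*, *Kars*, *Lars2*, *Rars*, *Vars* and *Wars*), of which *Rars* was lower. That left 28 called genes in place of 20. The calls over all genes rose as well, from 3568 higher and 3796 lower to 4341 and 4108.

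An amino acid with an enzyme in both compartments gives a pair, and there were 16 pairs, with *Eprs* entering those of glutamate and proline. In KO against WT both genes were called higher in 8 pairs, the cytosolic gene alone in 3, the mitochondrial gene alone in 1 and neither in 4. The counts for KI against WT were 2, 6, 2 and 6. Over all genes, 26.7% were called higher in KO and 21.2% in KI, each against WT. No share was counted for pairs of other genes, so the pair counts have no background. No pair was called in opposite directions in any comparison. The pair of serine had its larger change in the mitochondrial gene in KO (1.52 for *Sars2* and 0.42 for *Sars*), and that of alanine in the cytosolic gene (1.28 for *Aars* and 0.43 for *Aars2*).

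**Figure D3:**
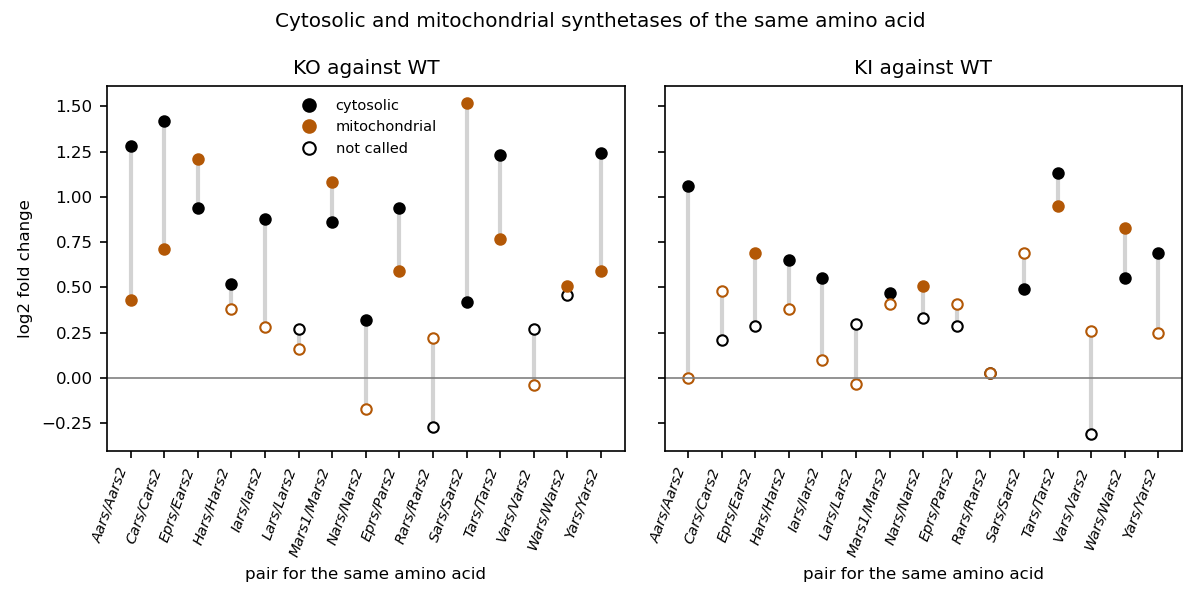
Log2 fold changes of the cytosolic (black) and mitochondrial (orange) enzyme of the same amino acid are joined by a grey line, for KO against WT on the left and KI against WT on the right. Open points did not pass the test. The serine pair is at 0.42 (*Sars*) and 1.52 (*Sars2*) in KO, and 15 of the 16 pairs are shown.

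The summed level of the 18 cytosolic genes was 3342 to 3516 CPM in KO, 2634 to 2916 in WT and 2733 to 3248 in KI. That of the 17 mitochondrial genes was 799.6 to 836.2 CPM in KO, 602.6 to 797.3 in WT and 713.8 to 745.2 in KI. The KO libraries stood above WT for both sums, by a narrow margin over WT 8 for the mitochondrial one. The ratio of the sums was 4.214 ± 0.105 in KO (SD, n = 4), 4.094 ± 0.684 in WT (SD, n = 3) and 4.182 ± 0.394 in KI (SD, n = 4). The wide spread in WT came with *Lars2* in WT 8: leaving *Lars2* out gave ratios of 8.489 ± 0.0891, 8.641 ± 0.178 and 8.118 ± 0.299, and the mitochondrial sums without it were 390.3 to 417.5 CPM in KO, 302.2 to 332.5 in WT and 356.0 to 391.1 in KI. With *Lars2* included, the ratio in the KO libraries lay within the range of the WT libraries. Without *Lars2*, the ratio was 7.677 to 8.305 in KI, below every library of WT (8.438 to 8.768) and KO (8.361 to 8.563). No test was run on these sums.

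**Figure D4:**
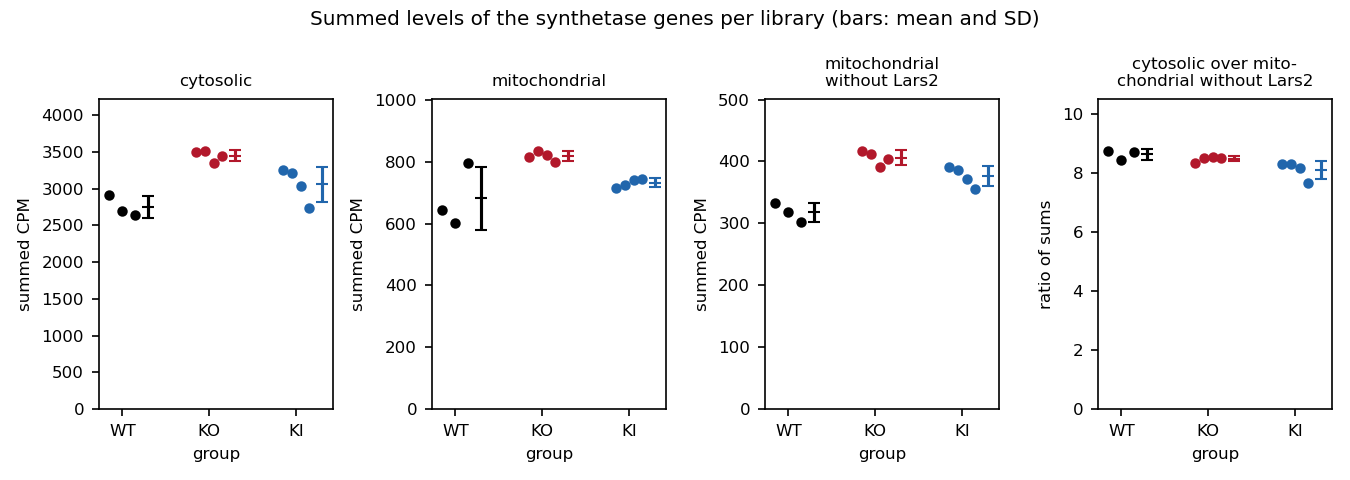
Each point is the summed CPM of a class in 1 library, or the ratio of the sums, with the mean and SD of each group beside the points. The mitochondrial sum of WT 8 (797.3 CPM) is set apart from the other WT libraries and joins them once *Lars2* is left out.

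Levels can be compared between genes only per length, and were divided by the coding length. In WT cells the median was 46.2 CPM per coding kilobase over the cytosolic genes and 8.14 over the mitochondrial genes. In KO the medians were 74.2 and 11.5, and in KI 71.9 and 10.7. The WT order was led by *Dars* (395.8 ± 111 CPM per coding kilobase, SD, n = 3), followed by *Nars* (143.9 ± 8.77) and *Lars2* (134.6 ± 42.1), of which the last pair did not differ beyond their spread. *Qars*, *Sars*, *Gars* and *Rars* followed between 84.29 and 93.25 and did not differ beyond theirs. *Mars2* (2.901 ± 0.785) and *Sars2* (2.57 ± 0.997) were lowest, and also overlapped. In KO cells *Nars* led at 182.1 ± 9.84, and *Dars* was at 144.4. The order turned with the length used: divided by transcript length, an alternative chosen after seeing the data, *Eprs* led in KO (128.2 ± 6.64 CPM per transcript kilobase) before *Nars* (111.2 ± 6.01), and in WT *Dars* (273.5 ± 76.8) was followed by *Lars2* (93.5 ± 29.3) and *Nars* (87.94 ± 5.36). *Lars2* was the mitochondrial gene with the highest level in each group by either length.

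**Figure D5:**
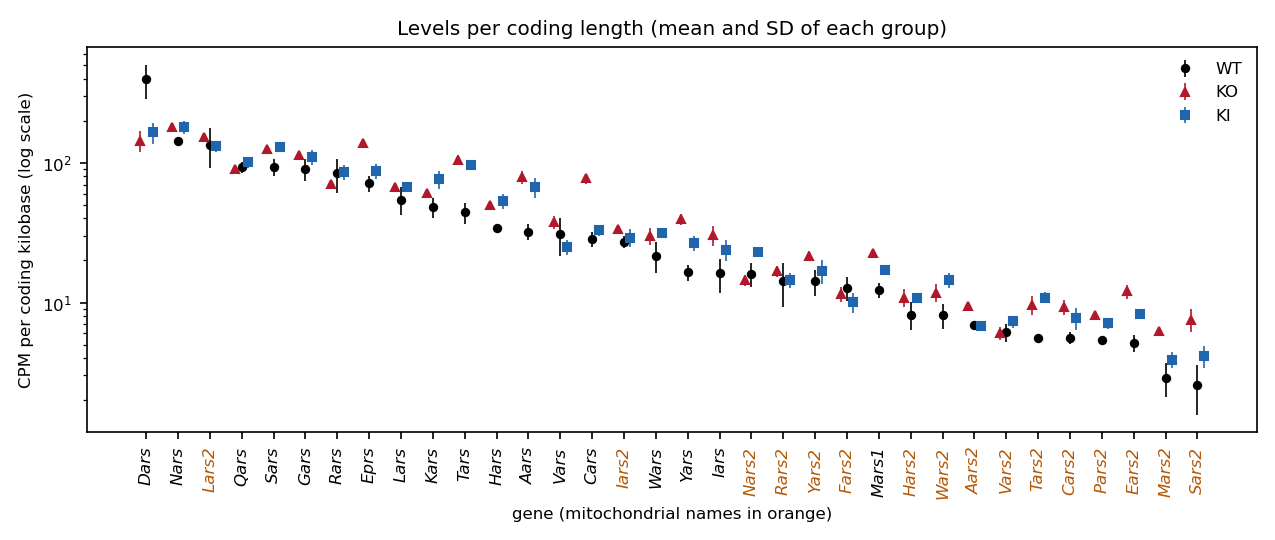
The mean CPM per coding kilobase (log axis) and its SD are shown for 34 genes in WT (circles), KO (triangles) and KI (squares) cells, ordered by the WT level. Names of mitochondrial genes are in orange. *Lars2*, at 134.6 in WT, is the only mitochondrial gene among the 10 highest in WT.

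Genes that work with the synthetases were taken as lists. Their counts of calls stand against the shares over all genes, 26.7% higher and 28.4% lower in KO against WT, 21.2% and 21.0% in KI against WT, and 27.0% each way in KO against KI. Of 10 relatives left out by the name rule, 5 were higher and 0 lower in KO against WT (median 0.40), 3 higher and 1 lower in KI against WT (0.32), and 3 higher and 2 lower in KO against KI (0.31). With library totals the counts were 8 higher and 0 lower in KO (median 0.80) and 6 and 0 in KI (0.65), both against WT. In KO, *Tarsl2*, a second threonine enzyme, rose by 0.90 ± 0.12 (adjusted p = 8.35e-05). *Farsb* and *Farsa*, the subunits of the cytosolic phenylalanine enzyme, rose by 0.74 ± 0.17 (adjusted p = 0.00395) and 0.39 ± 0.14 (adjusted p = 0.0307), and *Qrsl1*, a subunit of the mitochondrial glutamyl-tRNA amidotransferase, by 0.68 ± 0.18 (adjusted p = 0.00717). The call of *Farsa* was lost without KO 6, KO 8, WT 5-6 or WT 7. The 3 scaffold genes of the multisynthetase complex did not move together: in KO, *Aimp1* fell by 0.84 ± 0.21 (adjusted p = 0.00596) and *Eef1e1* fell by 0.73 ± 0.18 (adjusted p = 0.00576), while *Aimp2* rose by 0.48 ± 0.17 (adjusted p = 0.0340). The KO and WT libraries overlapped for *Aimp1*. The call of *Aimp2* was lost without KO 6, KO 7, KO 8, WT 5-6 or WT 7, and with library totals *Aimp1* (-0.40, adjusted p = 0.0664) and *Eef1e1* (-0.28, adjusted p = 0.143) did not pass the test.

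Of 18 genes of the ATF4 branch of the integrated stress response, 13 were higher and 0 lower in KO against WT, where 26.7% and 28.4% of all genes were, with a median of 0.63. For the KI line against WT, 4 were higher and 3 lower, counts near the shares of all genes (21.2% and 21.0%), with a median of -0.05 that was 0.27 with library totals, where all genes had 0.31. Between KO and KI, 15 were higher and 1 lower, against 27.0% of all genes each way, with a median of 0.88. The transcription factor gene *Atf5* rose by 3.43 ± 0.14 in KO (adjusted p = 6.18e-08), *Chac1*, which degrades glutathione, by 1.98 ± 0.21 (adjusted p = 2.16e-05), the pseudokinase gene *Trib3* by 1.94 ± 0.15 (adjusted p = 2.20e-06) and *Asns*, the asparagine synthetase gene, by 1.92 ± 0.12 (adjusted p = 4.95e-07). In KI against WT, *Atf5* rose by 0.92 ± 0.14 (adjusted p = 0.000274) and *Asns* by 0.59 ± 0.16 (adjusted p = 0.00937), whereas *Trib3* fell by 1.13 ± 0.21 (adjusted p = 0.000939) and *Chac1* was at -0.39 ± 0.27 (adjusted p = 0.259). *Atf4* itself was at 0.32 ± 0.13 in KO against WT (adjusted p = 0.0547). The other calls of the list in KI against WT were *Phgdh* (1.14 ± 0.16) and *Shmt2* (0.63 ± 0.16) higher, and *Psat1* (-1.02 ± 0.15) and *Ppp1r15a* (-0.44 ± 0.14) lower. The synthetase median was above that of all genes in both lines. The median of the ATF4 list was above it in KO and near it in KI, where the list had calls in both directions. The list holds *Atf4* itself and the kinase genes *Eif2ak1*, *Eif2ak2*, *Eif2ak3* and *Eif2ak4*, so its median is not one of ATF4 targets alone. Of these genes, *Eif2ak1* and *Eif2ak4* were called higher in KO and none in KI, each against WT. No test compared the lists, and a part of ATF4 in the synthetase changes of either line was not tested.

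Of the elongation factor genes of the cytosol, 5 of 6 were tested, and in KO 0 were higher and 2 lower (*Eef1b2* at -1.01 ± 0.15, adjusted p = 0.000223, and *Eef2* at -0.46 ± 0.16, adjusted p = 0.0272). Their median was -0.27 and turned to 0.12 with library totals, where *Eef2* was at -0.07 and the calls were 1 higher and 1 lower. The *Eef2* call was also lost without KO 5, KO 6, KO 7, WT 7 or WT 8. Of 10 mitochondrial translation factor genes, 4 were higher and 3 lower in KO, or 5 higher and 1 lower with library totals, where 55.1% of all genes were called in either direction. *Gfm1*, a mitochondrial elongation factor, rose by 1.74 ± 0.13 (adjusted p = 2.15e-06) and *Tufm*, another, by 1.10 ± 0.13 (adjusted p = 6.14e-05), while the initiation factor gene *Mtif2* fell by 0.82 ± 0.15 (adjusted p = 0.000989). Of 9 tested tRNA maturation genes, 3 were higher and 0 lower with a median of 0.00, where 26.7% and 28.4% of all genes were. The counts were 3 and 3 without WT 8 (median -0.18), 3 and 2 with a replicate block, and 5 and 0 with library totals. One called higher was *Pop1*, a subunit of ribonuclease P, at 1.50 ± 0.15 (adjusted p = 1.29e-05). Of 5 genes of tRNA export and editing, 2 were higher and 2 lower. *Xpot*, which exports tRNA from the nucleus, rose by 1.46 ± 0.15 (adjusted p = 1.61e-05) and *Ptrh2*, a peptidyl-tRNA hydrolase, fell by 1.27 ± 0.17 (adjusted p = 0.000125).

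The median log2 fold change over all genes differed between chromosomes. In KO against WT it was 0.53 on chromosome 7, which holds *Cars*, *Ears2*, *Nars2* and *Sars2*, 0.49 on chromosome 16, which holds *Yars2*, and 0.30 on chromosome 4 (*Pars2*, *Rars2* and *Yars*). It was -0.10 on chromosome 1 (with *Dars*, *Eprs*, *Iars2* and *Mars2*) and -0.06 on chromosome 8 (*Aars*, *Cars2* and *Kars*). Lower medians were found on chromosomes 12 (-0.35, *Wars*), 11 (-0.34, *Rars*), 18 (-0.33, *Hars*, *Hars2*, *Lars* and *Nars*) and 13 (-0.22, *Fars2* and *Iars*). In KO against KI the medians of chromosomes 7 and 16 were 0.44 and 0.51, and in KI against WT 0.10 and -0.03. Other chromosomes had the highest medians in KI against WT. They were 0.28 on chromosome 3 (*Sars*, *Tars2* and *Wars2*) and 0.23 on chromosome 15 (*Tars*). Chromosome 9 (*Lars2* and *Qars*) had 0.21 and chromosome 8 (*Aars*, *Cars2* and *Kars*) 0.20. The lowest in KI against WT were -0.39 on chromosome 14 and -0.22 on chromosome 19, which hold no member. The part of this shift in the changes of these genes was not tested.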

How the data were processed

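Polyadenylated RNA of 11 libraries was measured. The authors deposited raw counts per gene, without normalization, in 1 table. The labels' processing notes name HISAT2, TopHat2, Bowtie2 and StringTie without versions or roles, and the genome build is not given in the sources used here. Of 26472 lines, 26462 were used, 10 with broken fields were left out, and counts were summed by name. Another 11 columns of FPKM, whose decimals were damaged, were not used, and neither were 9 columns of the authors' own DESeq2 comparisons (adjusted p-values, log2 fold changes and calls).

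Genes passing edgeR's filter were scaled by TMM and tested with edgeR 4.0.16 in R 4.3.3 (quasi-likelihood, robust), each comparison with the libraries of its groups only. A Benjamini-Hochberg adjusted p under 0.05 over all genes tested was a call. Standard errors are the log2 fold change over the square root of F. The procedure was tested on simulated data. DESeq2 1.42.0, library totals, no filter, 1 fit of all libraries, the top entry per name, annotated genes only, a replicate block and leaving out each library were tried as alternatives, and transcript in place of coding length was added after seeing the data. Depth was 29840366 to 38422243 counts per library.

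Positions, coding lengths and exon overlaps are from GENCODE M21 (GRCm38), matched by name, and copies of at least 95% identity were searched among its transcripts. Named genes are the called members with the 5 largest rises and falls per comparison, the members called in none, and at most 4 called genes of each list by size of change in KO against WT. *Ears2*, *Aars2*, *Lars2* and *Wars*, and *Atf4*, the KI values of list genes and the markers named, were chosen after their values were seen. The members and lists were chosen with earlier results of these data known. The results of 1 member and 1 of the promoter matches are not reported here, and the counts include them.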

Additional observations from a re-analysis of the deposited data

Results flagged for a closer look

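In 4 of 70 groups of 4 libraries, the highest or lowest library of a synthetase gene lay far from the others, measured as its gap to the nearest library over the whole range, where chance gives about 3.5 such groups. For *Aars* in KI the share was 0.896, with KI 8 at 146.5 CPM and the others at 207.3 to 214.3. For *Iars2* in KI it was 0.856, with KI 8 at 69.18 CPM and the others at 93.73 to 97.86. For *Rars2* in KI it was 0.911, with KI 7 at 20.67 CPM and the others at 26.47 to 27.04. For *Fars2* in KO it was 0.902, with KO 5 at 18.48 CPM and the others at 14.34 to 14.75.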

How the results depend on the processing

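No called synthetase gene changed direction under any alternative, where a value of 0.00 was taken to have no direction, a choice made after seeing the data. Library totals in place of TMM gave, in KO against WT, 16 cytosolic genes called higher and medians of 0.83 (cytosolic) and 0.85 (mitochondrial). In KI against WT they gave 27 called genes, 15 cytosolic and 11 mitochondrial ones higher, and medians of 0.72 and 0.69. In KO against KI they gave 0 cytosolic genes lower, where the calls lower over all genes went from 3589 to 3077. Whether the numbers 5 to 8 pair the libraries could not be decided, and the main fits used no pairing. Deviations of libraries with the same number correlated between -0.38 (WT 8 and KI 8) and 0.50 (KO 8 and WT 8) across genes. WT 5-6 was not in this check. A replicate block called 7 further genes in KO against WT (*Gars*, *Hars2*, *Iars2*, *Kars*, *Vars* and *Wars* higher, and *Rars* lower, so that 2 cytosolic genes were lower), and ended the calls of *Iars* in KI against WT and of *Iars* and *Lars2* in KO against KI. Over all genes, the block moved the calls of KO against WT from 3568 higher and 3796 lower to 4060 and 4123. The fit of all 11 libraries called 7 mitochondrial genes higher in KI against WT and 1 cytosolic gene lower in KO against KI. Over all genes, that fit moved the calls higher in KI against WT from 2874 to 3222. It moved the calls lower in KO against KI from 3589 to 3270. DESeq2 and annotated genes only each called 2 mitochondrial genes lower in KO against KI, with 3822 and 3411 calls lower over all genes. Transcript in place of coding length, chosen after seeing the data, gave cytosolic and mitochondrial medians of 55.5 and 8.07 CPM per kilobase in KO, 34.2 and 5.06 in WT, and 54.2 and 6.4 in KI. The causes were not tested.

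With each library left out in turn, called genes numbered 17 to 28 in KO against WT, 9 to 19 in KI against WT and 11 to 17 in KO against KI. The calls over all genes also moved with the library left out. In KO against WT, cytosolic genes called lower numbered 1 to 2, and the cytosolic median was 0.38 to 0.59. The KI line against WT had 5 to 11 cytosolic and 3 to 7 mitochondrial genes called higher. In KO against KI, 0 to 3 cytosolic and 1 to 3 mitochondrial genes were called lower, and the cytosolic median was -0.03 to 0.07, negative without KI 8. Of the calls, 17 of 20, 9 of 14 and 10 of 15 held in every such fit.

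The log2 ratio of the cytosolic to the mitochondrial sum was 0.06 for KO against WT, 0.04 for KI against WT and 0.02 for KO against KI. It turned to -0.14, -0.11 and -0.03 without the top member of each class. Leaving out 1 library gave -0.09 to 0.13, -0.11 to 0.12 and -0.05 to 0.06. The ratio of the sums of all members has no stable direction. With only *Lars2* left out, the ratio of every KI library lay below those of WT and KO.

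Some uncalled genes turned direction, and not only those near 0. *Rars* in KO against WT was at -0.27 ± 0.16 in the main fit. It was called lower without WT 8 or with the replicate block, yet turned with library totals. In KO against WT with library totals, *Fars2* was at 0.25, *Nars2* at 0.26, *Rars* at 0.17, *Vars2* at 0.36 and *Qars* at 0.36, the last called (adjusted p = 0.0174, edgeR). *Vars2* was at 0.15 with the top entry per name. In KI against WT, *Lars2* was at 0.26 with library totals and 0.05 with the block, and *Rars* at -0.01 with the block. In KO against KI with library totals, *Lars* was at 0.05 and *Sars* at 0.01. With 1 library left out, values spanned, in KO against WT, for *Qars* -0.10 to 0.04 and for *Vars2* -0.12 to 0.11. In KI against WT they spanned -0.12 to 0.27 for *Rars*, -0.18 to 0.34 for *Rars2* and -0.18 to 0.25 for *Lars2*. In KO against KI they spanned -0.07 to 0.06 for *Nars*, -0.08 to 0.07 for *Hars2*, -0.05 to 0.02 for *Lars* and -0.03 to 0.13 for *Gars*. The WT group of 3 libraries, with WT 8 apart for several genes, limits both comparisons against it.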
